A study of Mus musculus with 2 samples.

Results

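The 10 genes described here encode parts of the Notch pathway: the receptor gene Notch1, the ligand genes Dll1, Dll3, Dll4, Jag1 and Jag2, and the target genes Hes1, Hey1, Hey2 and Heyl. They were taken as a named list, by a rule that uses no measured value but was written with earlier results of these data known, out of 21887 protein-coding genes on chromosomes with at least 1 peak. The histone mark H3K27me3 (lysine 27 of histone H3 carrying 3 methyl groups) was mapped by chromatin immunoprecipitation and sequencing in whole sciatic nerves from male mice of the C57/BL6 strain, 8 weeks old. A single ChIP library and its input were made, from nerve crosslinked in 1% formaldehyde and chromatin sheared to 0.5 to 2 kb on average, per the labels' protocols. A peak counted for a gene when it overlapped the annotated gene span plus 10 kb on each side by at least 1 bp. How many animals the library came from was not stated, and without replicates no difference could be tested against variation between animals.

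Notch receptors sit in the cell membrane and bind ligands of the Delta-like and Jagged families on a neighbouring cell. Binding leads to cleavage of the receptor, and the freed intracellular part joins the DNA-binding protein RBPJ and a Mastermind protein in the nucleus to switch on genes such as Hes1 and the Hey genes, which encode transcriptional repressors. In peripheral nerve the pathway is known for promoting the formation of Schwann cells from their precursors and for opposing myelination, and in vessels for arterial and sprouting endothelial cells. H3K27me3 is written by Polycomb repressive complex 2 and is associated with silent genes.

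The deposited list held 6018 peaks covering 7.61 Mb. Each peak carries a score from the authors. All but 10 of the scores differed by at most 0.05 from a multiple of 2.5735, and a score divided by that step is given below as reads. That 1 step stands for 1 read is an assumption, on which all read numbers and their intervals rest. The smallest score, 25.7, would then be 10 reads, with an exact 95% Poisson interval of 4.80 to 18.4 reads. These intervals cover counting error only. A gene without a listed peak may still carry signal below that lowest score. In a whole tissue, a mark on a small share of cells and a weak mark on many cells cannot be told apart. A peak list does not measure expression, so it gives no direct check of the tissue. The Schwann cell genes Mbp and Sox10 each had a peak of 11 reads, and of 6 endothelial markers 1 did (Cldn5, 12 reads).

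H3K27me3 peaks lay at 5 of the 10 genes, 4 of the 5 ligand genes (Dll1, Dll3, Dll4 and Jag2) and 1 of the 4 Hes and Hey genes (Hey2). Notch1, Jag1, Hes1, Hey1 and Heyl had no peak in the gene or its 10 kb flanks. The share with a peak was 50% (exact 95% Clopper-Pearson interval 18.7 to 81.3), against 13.7% of all protein-coding genes under the same rule. That interval treats the genes as independent random draws, which a list chosen by name is not. It covers no variation between animals and is no test against the 13.7%. A peak within 2 kb of an annotated start was found at the same 5 genes, against 8.11% of all protein-coding genes. For genes without a promoter entry in the reference table, among them Hes1, Hey1 and Heyl, both annotated gene ends were counted as starts. With genes without a peak counted as 0 reads, the median over the 10 genes was 9, midway between 0 and the 18 reads at Jag2. Over all protein-coding genes it was 0. No test was run, since there is 1 ChIP library.

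**Figure D1:**
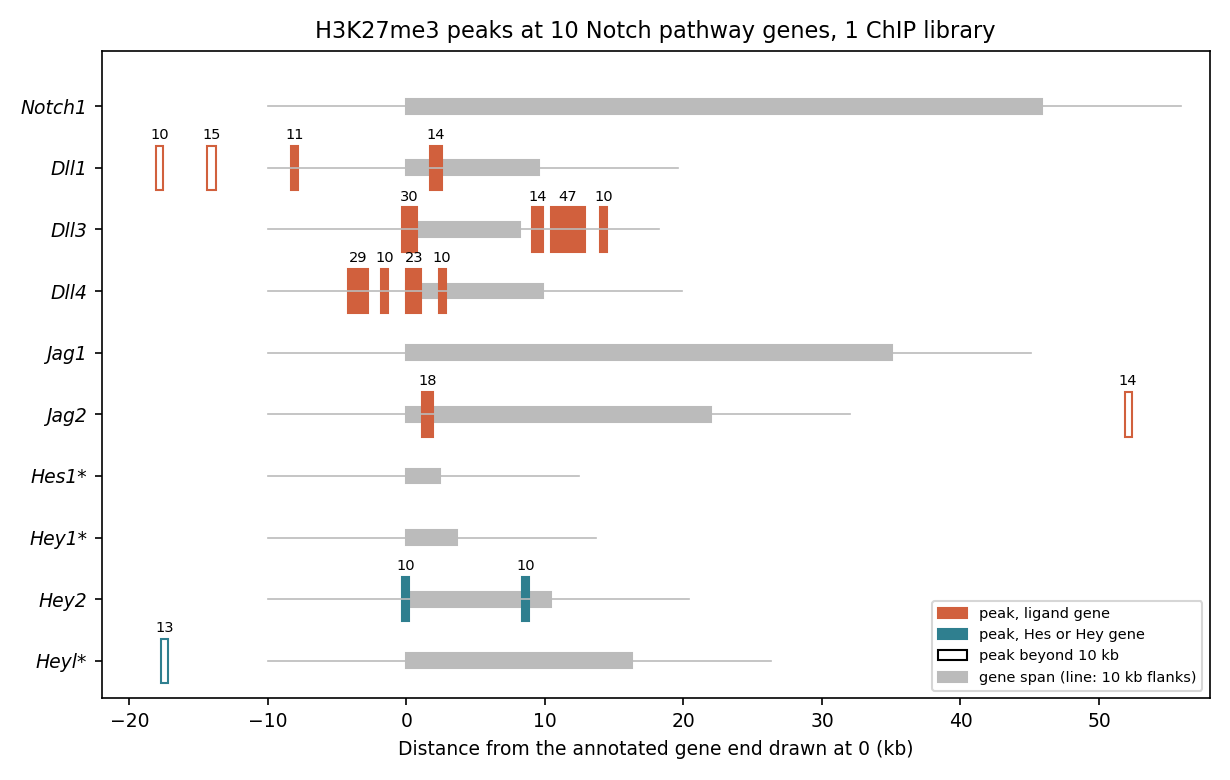
H3K27me3 peaks (upright boxes, with their reads above) at the 10 genes, by distance in kb from the annotated gene end drawn at 0, with gene spans as grey bars and the 10 kb flanks as lines. Genes run left to right along transcription, except those with an asterisk, which have no strand in the tables used and start at their lower coordinate. Filled boxes counted for the gene: 4 at Dll3, 4 at Dll4, 2 at Dll1, 2 at Hey2 and 1 at Jag2.

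The 13 counted peaks had a median of 14 reads, equal to the median over all peaks. Their widths ran up to 2412 bp, with a median of 823 bp, against a median of 643 bp over the whole list. Of the 13, 6 (46.2%) had the shortest width, 500 bp, against 41.6% of all peaks, and 5 (38.5%) held the fewest reads, 10, against 24.8% of all peaks. Reads per kb of peak ran between 15.9 and 27.7 with a median of 20, close to the median of 21.0 over all peaks. The 5 peaks of 10 reads were all 500 bp wide, so each had 20 reads per kb, the density of the smallest listed peak. The peaks of the 5 genes differed in number and width more than in density of reads. That density was also close to the one over the whole list, so it is not particular to these genes.

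Dll4 encodes the Delta-like ligand known for its role in arterial and sprouting endothelium. It carried 4 peaks spread over 7052 bp around its start (chr2:119321556-119328607), all nearer to Dll4 than to any other protein-coding gene. Going along transcription, they held 29, 10, 23 and 10 reads, 72 in all (exact 95% Poisson interval 56.3 to 90.7). The first lay 4.23 to 2.76 kb upstream of the start and was 1468 bp wide, and the second, of 500 bp, lay 1.81 to 1.31 kb upstream. The third, of 1061 bp, began 9 bp before the start and reached 1051 bp into the gene, and the fourth lay 2.32 to 2.82 kb into it. The mark at Dll4 was thus split between the upstream side, with 39 of the reads, and the first part of the gene, with 33. Peaks covered 11.8% of the gene and its flanks, and 77.5% of the 2988 protein-coding genes with a peak had fewer reads.

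Dll3 encodes a divergent Delta-like protein known for its role in somite formation. One peak lay over its start (chr7:28301056-28302137), 1082 bp wide with 30 reads (20.2 to 42.8), running between 352 bp upstream and 729 bp inside the gene. The other 3 peaks counted for Dll3 lay beyond its far end, 9.05 to 14.5 kb from the start, with 14, 47 and 10 reads. All 3 were nearest to Selenov, a selenoprotein gene whose span is chr7:28284652-28291186, and those of 47 and 10 reads overlapped it. The peak of 14 reads lay between both genes, 721 bp from Selenov and 823 bp from Dll3, so its assignment rests on a small difference. The peak of 47 reads was, at 2412 bp, the widest of the 13. Of the 101 reads counted for Dll3 (82.3 to 122.7), 71 were therefore in peaks nearest to Selenov and 30 in the peak at the Dll3 start. The place of Dll3 among genes with a peak, 84.0% of which had fewer reads, rests on those 71 reads.

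Dll1, a Delta-like ligand of neural and mesodermal progenitors, and Jag2, a Jagged ligand known for limb and craniofacial development, had fewer reads. At Dll1, a peak of 881 bp and 14 reads (chr17:15374349-15375229) lay 594 to 1474 bp inside the gene, counted from the inner of its 2 annotated starts. A second peak of 500 bp and 11 reads lay 8.34 to 7.84 kb upstream of the outer start, which made 25 reads in all (16.2 to 36.9). Another 2 peaks, of 15 and 10 reads, lay 13.7 and 17.6 kb upstream of the Dll1 span, just beyond the 10 kb flank, and were nearest to Fam120b. At Jag2, a single peak of 823 bp and 18 reads (10.7 to 28.4; chr12:112927874-112928696) lay 799 to 1621 bp inside the gene. The neighbouring gene Nudt14 also lay within 10 kb of that peak. At both genes the peak in the gene began beyond the 300-base promoter and left the start itself uncovered. Of the genes with a peak, 48.6% had fewer reads than Dll1 and 37.5% fewer than Jag2.

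Jag1, the ligand gene known from Alagille syndrome in humans and expressed in many tissues, stood apart from the other ligand genes in having no peak. When only peaks of at least 20 reads were counted, Dll1 and Jag2 had none either. The peak nearest to the Jag1 span (chr2:137081451-137116520) lay 369 kb away, had 12 reads and was nearest to Snap25, a synaptic gene. Of all protein-coding genes, 36.8% lay farther from any peak than Jag1, and the median distance was 205 kb, so such a distance is common in this list.

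**Figure D2:**
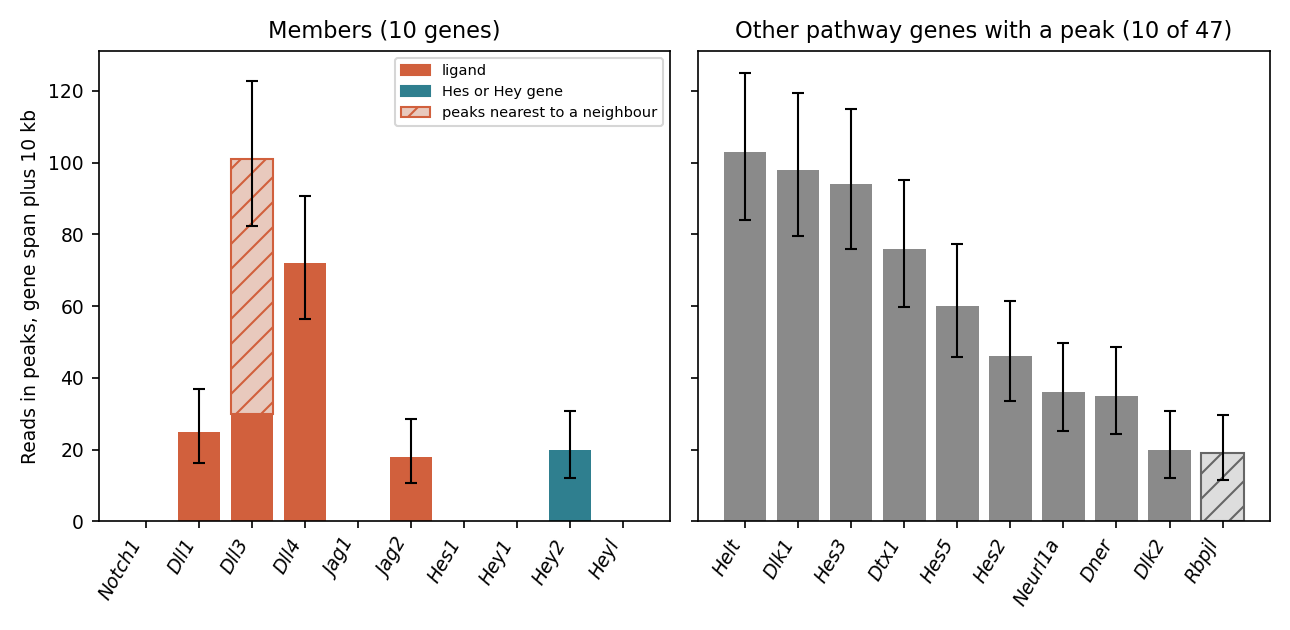
Reads in H3K27me3 peaks within the gene span plus 10 kb, for the 10 genes (left) and for the 10 of 47 other Notch pathway genes with a peak (right); error bars are exact 95% Poisson intervals, which cover counting error only. Hatched parts are peaks nearest to another protein-coding gene, 71 of 101 reads at Dll3 and all 19 at Rbpjl.

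Promoter sequences of 300 bases (250 before and 50 after the start, RefSeq, build GRCm38.p6, the same build as mm10) were held for 7 of the 10 genes, with 2 entries for Dll1; Hes1, Hey1 and Heyl had no entry. Peaks overlapped 3 of the 8 promoters, those of Dll3 (300 of 300 bases), Hey2 (300 of 300) and Dll4 (59 of 300), against 4.42% of 21263 promoters of protein-coding genes. The promoters of Dll3 and Dll4, overlapped by a peak, are shown beside that of Jag1, which has none nearby, because CpG dinucleotides, in capitals, are a known feature of DNA that carries H3K27me3. Each is written 5′ to 3′ along the gene.
Dll3: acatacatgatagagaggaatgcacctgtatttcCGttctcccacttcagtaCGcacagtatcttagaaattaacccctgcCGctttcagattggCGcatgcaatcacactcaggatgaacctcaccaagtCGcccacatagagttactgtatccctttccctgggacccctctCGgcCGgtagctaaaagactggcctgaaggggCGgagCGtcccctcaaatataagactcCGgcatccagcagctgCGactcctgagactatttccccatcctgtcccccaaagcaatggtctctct
Dll4: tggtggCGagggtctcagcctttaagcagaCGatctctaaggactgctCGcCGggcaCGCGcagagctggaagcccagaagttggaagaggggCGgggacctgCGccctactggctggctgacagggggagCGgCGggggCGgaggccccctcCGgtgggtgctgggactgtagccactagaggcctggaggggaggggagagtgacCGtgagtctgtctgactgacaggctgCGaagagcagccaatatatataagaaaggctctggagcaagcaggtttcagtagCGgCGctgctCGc
Jag1: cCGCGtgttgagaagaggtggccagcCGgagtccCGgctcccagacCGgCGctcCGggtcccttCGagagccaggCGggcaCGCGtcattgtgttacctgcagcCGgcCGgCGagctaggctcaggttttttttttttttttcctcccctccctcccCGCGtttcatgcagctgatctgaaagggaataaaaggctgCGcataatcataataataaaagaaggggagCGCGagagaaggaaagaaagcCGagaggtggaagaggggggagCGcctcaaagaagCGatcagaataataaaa
The Dll3 promoter (chr7:28301736-28302035, minus strand) held 11 CpGs at a GC content of 52.0%, and that of Dll4 (chr2:119325534-119325833, plus strand) 17 at 63.7%. The Jag1 promoter (chr2:137116471-137116770, minus strand), with no peak, held 22 at 55.7%. The ratio of observed to expected CpGs was 0.573 at Dll3 and 0.595 at Dll4, both below the 0.959 at Jag1. Promoters under a peak had a median ratio of 0.678 over the series, against 0.567 over all promoters. The highest ratio, 1.14 with 63 CpGs at a GC content of 86.0%, belonged to the Jag2 promoter. No peak overlapped that promoter, and the Jag2 peak lay 799 to 1621 bp inside the gene. Whether CpG content goes with the mark was not tested. Of all promoters, 99.9% had a lower GC content than that of Jag2.

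**Figure D3:**
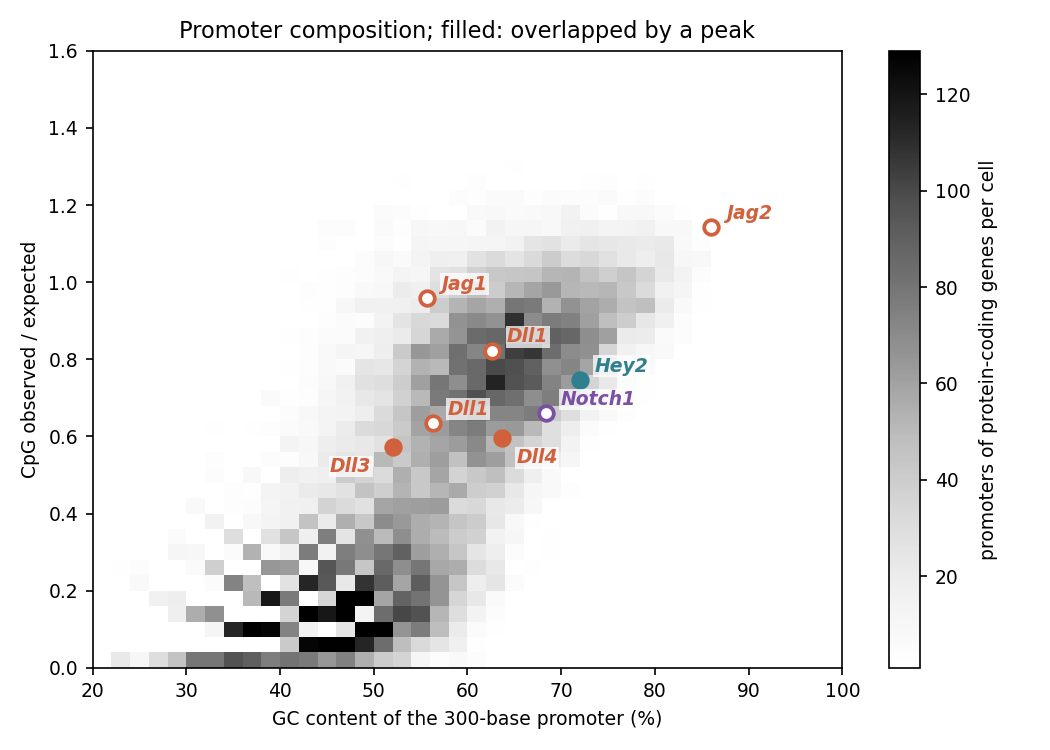
GC content (x axis, %) and observed over expected CpG ratio (y axis) of the 8 promoters of 7 genes, over a grey map of how many of 21263 promoters of protein-coding genes fall in each cell. Filled points, Dll3, Dll4 and Hey2, are overlapped by a peak; they lie between 0.573 and 0.746 in CpG ratio, while the open points lie between 0.635 and 1.14.

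Hey2, a target of Notch known for its roles in heart and artery development, was the single Hes or Hey gene of the list with peaks. It had 2, each of 500 bp and 10 reads, and 20 reads in all (12.2 to 30.9). One lay over the start (chr10:30842583-30843082), reaching from 299 bp upstream to 200 bp inside the gene, and the other 8.34 to 8.84 kb into the gene. Both were nearest to Hey2, and 39.5% of the genes with a peak had fewer reads. Of the 5 genes with a peak, Hey2 alone rested on peaks of the smallest size in the list.

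The Hey2 promoter was searched on both strands, with those of the other genes, for letters bound by RBPJ, TGGGAA and the longer CGTGGGAA, which contains it. It is shown because it alone among the 7 genes held them; capitals mark the CGTGGGAA matches.
Hey2: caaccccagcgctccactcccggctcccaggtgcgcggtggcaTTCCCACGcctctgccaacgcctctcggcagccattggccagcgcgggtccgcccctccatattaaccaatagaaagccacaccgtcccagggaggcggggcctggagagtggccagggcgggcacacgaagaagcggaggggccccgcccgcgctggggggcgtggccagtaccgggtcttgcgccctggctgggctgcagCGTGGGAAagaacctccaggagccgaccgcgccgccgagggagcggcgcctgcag
The match near the start ran along the gene from 5 bases before to base 3 after it, and the other, on the opposite strand, from 207 to 200 bases before the start. Both lie under the peak of 10 reads. TGGGAA occurred in 24.5% of all promoters of protein-coding genes and CGTGGGAA in 0.856%. Only 4 of 21263 promoters held 2 matches to CGTGGGAA, those of Hey2, Atp6v1g2, Ffar2 and 1700034I23Rik, the last 3 named after their values were seen and none of them under a peak. A match is a run of letters and was not tested as a binding site. Of the letters bound by Hes and Hey repressors, CACGCG occurred at Dll1, Dll4, Jag1 and Jag2, 4 of the 7 genes. Only 1 of the 2 Dll1 promoters held it, so by promoter it was 4 of the 8. It occurred in 12.1% of all promoters and in 22.6% of the 10553 promoters with a CpG ratio of at least 0.573, the lowest of the 8. CACGTG and CACGAG occurred in none of the 8, against 7.84% and 7.12% of all promoters.

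Hes1, the best known Notch target and a keeper of progenitor states, and Hey1, a target with roles in vessels and heart, had no peak nearby. The peak nearest to the Hes1 span (chr16:30065357-30067796) was 240 kb away, nearest to the platelet gene Gp5, and held 30 reads. The peak nearest to Hey1 (chr3:8663359-8667038) was 152 kb away, nearest to Stmn2, and held 17 reads. Among all protein-coding genes, 46.6% lay farther from any peak than Hes1 and 56.5% farther than Hey1, so such distances are common in this list. Heyl (chr4:123233556-123249870), the third Hey gene, fell closer to the limit, with a peak of 500 bp and 13 reads 17.2 kb from its span, inside Nt5c1a. Of the peaks just outside the 10 kb flanks, those at Dll1 and this one at Heyl came nearest to a gene of the list.

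Notch1, the receptor gene, had no peak in its span of 45921 bp (chr2:26457902-26503822) or in its flanks. The nearest lay 251 kb downstream, nearest to Lhx3, a homeobox gene of motor neurons and pituitary, and held 281 reads over 12284 bp. Among all protein-coding genes, 45.4% lay farther from any peak than Notch1. The Notch1 promoter (chr2:26503773-26504072, minus strand) is shown for its composition, with CpGs in capitals.
Notch1: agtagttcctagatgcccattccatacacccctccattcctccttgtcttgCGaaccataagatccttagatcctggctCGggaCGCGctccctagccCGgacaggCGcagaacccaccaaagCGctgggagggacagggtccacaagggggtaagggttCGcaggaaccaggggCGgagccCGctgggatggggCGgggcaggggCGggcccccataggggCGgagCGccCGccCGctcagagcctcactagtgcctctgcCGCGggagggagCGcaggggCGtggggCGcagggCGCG
It held 23 CpGs at a GC content of 68.3%, with a CpG ratio of 0.660, between those of Dll4 and Hey2, whose promoters peaks overlapped.

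**Figure D4:**
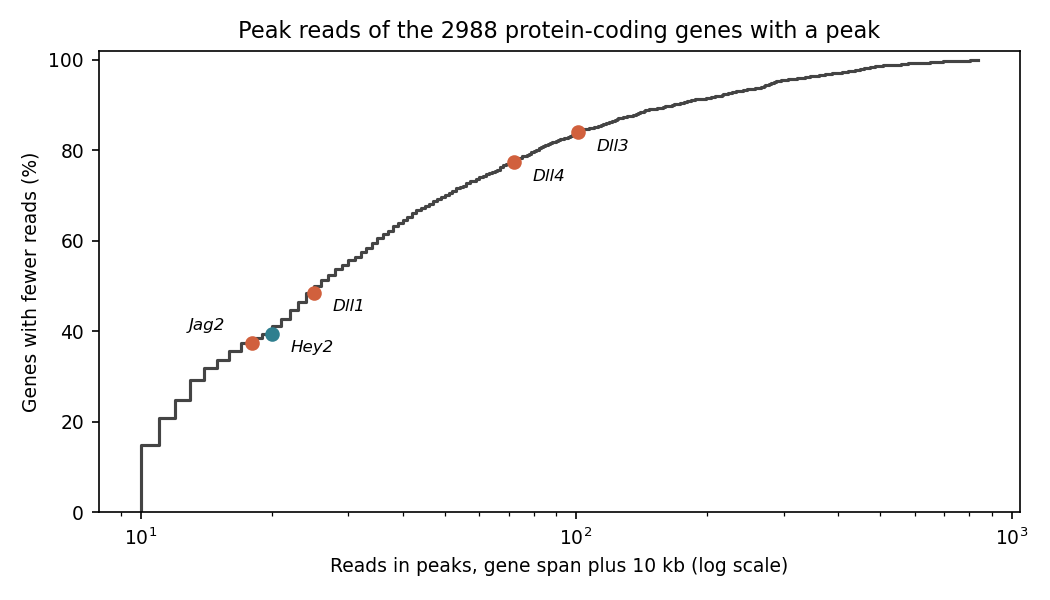
Share of the 2988 protein-coding genes with a peak (y axis, %) that had fewer reads than a given number of reads (x axis, log scale) in the gene span plus 10 kb. Hey2 and Jag2 lie below the middle of the curve at 20 and 18 reads, Dll1 at the median of 25 reads, and Dll4 and Dll3 above it at 72 and 101 reads.

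Of 47 other genes of the pathway, 10 had a peak in the gene or its 10 kb flanks (21.3%, 10.7 to 35.7), against 13.7% of all protein-coding genes. The interval has the same limit as that of the 10 genes, since this list too was chosen by name. All 3 genes of other ligands of the Delta-like kind or of non-canonical ligands had one, with 98 reads at Dlk1, an imprinted gene of adipose and muscle progenitors, 35 at Dner and 20 at Dlk2. The other receptor genes, Notch2, Notch3 and Notch4, had none, as Notch1. Among genes of other Hes-type repressors, Helt (103 reads), Hes3 (94), Hes5 (60) and Hes2 (46) had peaks, and Hes6 and Hes7 had none. Hes2 and Hes3 both lie on chromosome 4, with 123 kb between their spans, and Hes5 lies on the same chromosome. Each of these 7 ligand and Hes-type genes had a peak within 2 kb of a start.

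Of the 35 genes of processing, the nuclear complex, glycosylation and modulation, 3 had a peak (8.57%), against 13.7% of all protein-coding genes, a difference that was not tested. Of 13 genes for the processing of ligands and receptors, only Neurl1a, a ubiquitin ligase gene, had one (36 reads), inside the gene. The others included the protease genes Adam10, Adam17 and Furin, the gamma-secretase genes Psen2, Ncstn, Aph1a, Aph1b and Psenen, and the ubiquitin ligase genes Mib1, Mib2 and Neurl1b. Of 8 genes of the nuclear complex, Rbpj, Maml1, Maml2, Maml3, Snw1 and Spen were among those with none, and the single peak counted was one of 19 reads beside Rbpjl that was nearest to Matn4. None of the 5 glycosyltransferase genes (Lfng, Mfng, Rfng, Pofut1 and Poglut1) had a peak. Of 9 inhibitors and modulators, Dtx1, a ubiquitin ligase gene, had 3 peaks with 76 reads, and Numb, Numbl, Nrarp, Itch, Fbxw7, Dtx2, Dtx3 and Dtx4 had none. These counts by role describe 1 library, and no test was run on them.

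**Figure D5:**
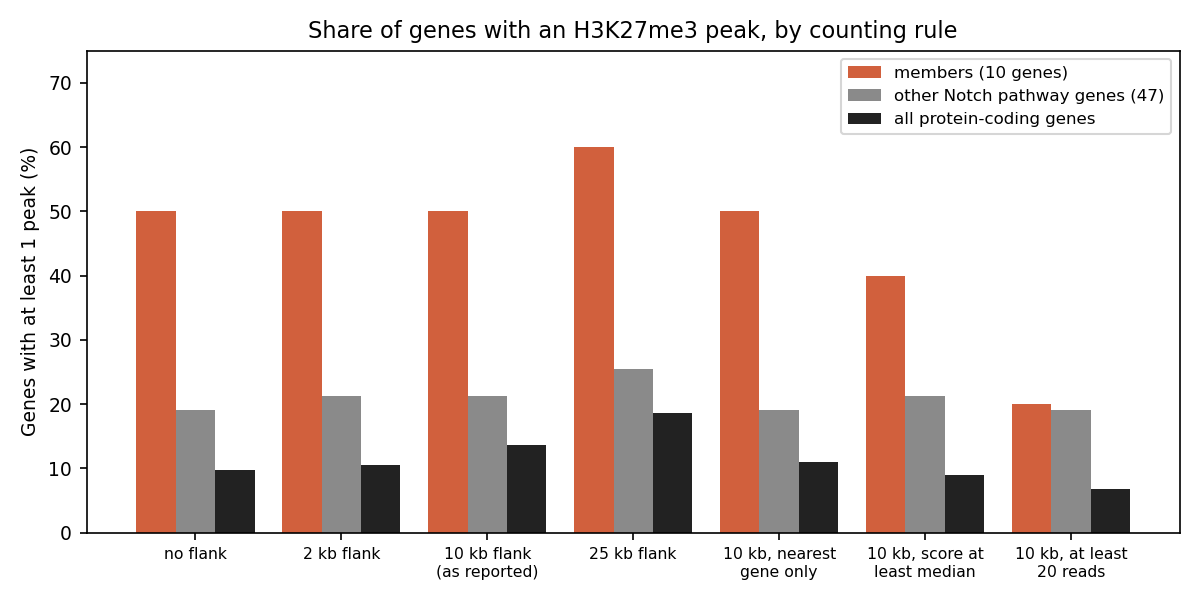
Share of genes with at least 1 H3K27me3 peak (y axis, %) by counting rule, for the 10 genes, the 47 other Notch pathway genes and all 21887 protein-coding genes. The 10 genes lie between 20% and 60%, and all protein-coding genes between 6.77% and 18.6%.

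The count of 5 genes held across flanks and fell when weak peaks were left out. With no flank the same 5 genes had a peak, against 9.77% of all protein-coding genes, and with flanks of 2 kb again, against 10.5%. With flanks of 25 kb Heyl joined them, for 6 of 10 against 18.6%. With each peak given to its nearest gene alone the 5 stayed, against 11%, and likewise with at least 50% of the peak inside, against 13.5%. Peaks at or above the median score left 4 genes, without Hey2, against 8.92%. With peaks of at least 20 reads, Dll3 and Dll4 alone were left (20%), against 6.77% of all protein-coding genes, and both had such a peak within 2 kb of a start, against 4.54%. In peaks of that size the other pathway genes stood at 9 of 47 (19.1%). Restricting the background to the 13643 genes with spans of 2440 to 45921 bp, the range of the list, gave 13.2%, and restricting it to the 9232 genes with a promoter CpG ratio of at least 0.573 gave 15.5%, both chosen after the values were seen.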

How the data were processed

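H3K27me3 ChIP-seq and input libraries were made from mouse sciatic nerve with the Illumina TruSeq kit, per the labels' protocols. Bowtie and build mm10 are named in the submitters' processing notes; the Bowtie version, peak caller, threshold and use of the input: not given in the sources used here. Input values were not analysed here. Each deposited score, made by the authors, was divided by its common step (2.5735) and rounded to reads; what it was scaled to is not stated. Gene spans came from a RefSeq table of GRCm38.p6 and starts from RefSeq promoter entries, which 17492 of 21887 protein-coding genes had; for the rest either gene end counted. Of 805 overlapping promoter pairs on opposite strands, 805 were reverse complements, so entries read along the gene. Exons and introns were not used here. Counting used Python 3.11.15, pandas 2.3.3 and scipy 1.17.1, and was tested on simulated peaks. The 10 genes, the other lists and the motifs were chosen with earlier results of these data known. Named were all members, listed pathway genes, and genes nearest to a peak of a member; some genes are not reported here. Alternatives changed flanks, windows, peaks, overlap and assignment of peaks to genes.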

Additional observations from a re-analysis of the deposited data

How the results depend on the processing

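The 5 genes with a peak stayed 5 with no flank, flanks of 2 kb, at least 50% of the peak inside and each peak given to its nearest gene only, and numbered 6 with flanks of 25 kb, which add Heyl. Peaks scoring 36 (the median) or more left 4 of the 10, without Hey2, and 1953 of all protein-coding genes in place of 2988. Peaks of at least 20 reads left 2 of the 10 and 1481 of all genes, and 2 of the 5 genes with a peak within 2 kb of a start. The other pathway genes with a peak numbered 9 to 12 of 47 under every alternative run. Reads summed over the 10 genes, 236, were 115 with no flank, 139 with flanks of 2 kb, 274 with flanks of 25 kb and 165 with each peak given to its nearest gene only, where Dll3 kept 30 of 101. No peak of under 10 reads is listed, so genes without a peak have no measured value here and were counted as 0 reads. No paired analysis was possible because there is 1 library of each kind.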
